A study of Mus musculus with 25 samples.

Results

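Imprinted genes are transcribed mainly from the chromosome inherited from 1 parent. The 40 mouse genes described here were listed by symbol and sorted by the parental allele they are known to be read from. A row was found in the table of sperm RNA for 39 of them, among 47575 genes in all, and the remaining gene, Zrsr1, could not be matched to a row and was not analysed here. The 39 genes belong to 17 known imprinted domains. Of the 39 genes, 20 were classed as paternally and 15 as maternally expressed. The other 4 (Gnas, Grb10, Ddc and Inpp5f), whose expressed allele differs by tissue or transcript, were put in neither class. A class does not mean imprinting in every tissue. Ube3a, classed as maternal, is read from both alleles in most cells other than neurons. The reads were not assigned to alleles, so every value below is the sum of both.

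Sperm RNA was sequenced from 25 male C57/BL6J mice, 5 on each diet, virgin and aged 8 weeks when the diets began, which lasted 8 weeks or more. The control diet (CD) was 18% casein and 21% sugar, and the low-protein diet (LPD) was 9% casein and 24% sugar, both with milk fat and cholesterol at 0%. The Western diet (WD) was 19% casein, 34% sugar, 20% milk fat and 0.15% cholesterol. In MD-LPD and MD-WD those 2 diets also carried methyl donors and cofactors, namely choline chloride (5 g/kg diet), betaine (15 g/kg), methionine (7.5 g/kg), folic acid (15 mg/kg) and vitamin B12 (1.5 mg/kg). The labels give all males as 1 strain and name no transgene. The sperm had swum up from cut caudal epididymides, and no step to remove other cells is described in the sources used here. For 3 libraries (CD male 15, LPD male 15 and MD-LPD male 15) the treatment field of the labels names another diet than the title, and the title was followed.

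The parental mark is DNA methylation laid down in the germ line at the control region of each domain. In male germ cells the old marks are erased and only the control regions of a few domains, those of H19-Igf2 and Dlk1-Meg3 among them, are methylated anew before birth, while most other control regions are methylated in the oocyte. Sperm therefore carry methylated H19-Igf2 and Dlk1-Meg3 control regions and unmethylated control regions at Peg3, Snrpn, Kcnq1ot1, Airn, Mest, Plagl1, Impact and Grb10. Chromatin in mature sperm is packed with protamines and is held to be transcriptionally silent, so RNA in a sperm sample is what earlier stages left behind, what the epididymis passed on, or what other cells in the sample hold. Methyl donors feed the supply of S-adenosylmethionine, from which DNA methyltransferases take the methyl group, and imprinted genes are for this reason often examined in studies of paternal diet.

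Promoter sequences are shown for Kcnq1ot1 and Grb10, whose libraries did not overlap those of CD in MD-WD and in LPD respectively, and for Peg3, whose promoter window overlaps that of a neighbour, with every CG dinucleotide, the letters that carry the methyl mark, in capitals. Each is a window of 250 bases before and 50 after a start site, 5′ to 3′ on the gene's own strand, from RefSeq on build GRCm38.p6. Kcnq1ot1 lies at chr7:143296498-143296797 (minus strand), Peg3 at chr7:6730370-6730669 (minus strand), and Grb10 has a first window at chr11:12037371-12037670 (minus strand) and a second, downstream in the direction of transcription, at chr11:12027922-12028221 (minus strand).
Kcnq1ot1: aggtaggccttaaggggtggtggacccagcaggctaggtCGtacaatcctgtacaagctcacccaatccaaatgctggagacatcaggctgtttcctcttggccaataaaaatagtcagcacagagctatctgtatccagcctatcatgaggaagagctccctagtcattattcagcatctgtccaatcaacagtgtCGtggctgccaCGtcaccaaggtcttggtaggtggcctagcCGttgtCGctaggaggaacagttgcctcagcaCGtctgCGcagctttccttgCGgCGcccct
Peg3: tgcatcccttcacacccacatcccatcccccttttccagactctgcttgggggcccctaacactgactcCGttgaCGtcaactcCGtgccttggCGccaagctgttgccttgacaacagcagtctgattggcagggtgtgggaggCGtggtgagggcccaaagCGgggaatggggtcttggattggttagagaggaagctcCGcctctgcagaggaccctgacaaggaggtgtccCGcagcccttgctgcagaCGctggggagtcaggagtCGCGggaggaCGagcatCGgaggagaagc
Grb10, first window: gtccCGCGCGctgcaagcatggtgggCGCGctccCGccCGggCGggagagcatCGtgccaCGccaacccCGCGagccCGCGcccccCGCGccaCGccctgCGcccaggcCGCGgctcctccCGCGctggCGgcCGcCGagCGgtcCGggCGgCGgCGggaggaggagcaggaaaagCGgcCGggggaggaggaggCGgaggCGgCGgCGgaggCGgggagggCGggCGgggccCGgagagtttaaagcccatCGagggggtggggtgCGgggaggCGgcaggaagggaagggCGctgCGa
Grb10, second window: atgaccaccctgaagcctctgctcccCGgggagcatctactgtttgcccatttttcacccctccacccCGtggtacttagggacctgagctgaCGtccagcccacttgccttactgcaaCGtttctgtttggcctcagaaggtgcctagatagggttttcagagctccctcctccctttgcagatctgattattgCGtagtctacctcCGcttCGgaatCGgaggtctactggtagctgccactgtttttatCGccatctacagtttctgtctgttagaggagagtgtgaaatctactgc
The windows held 9 CG in Kcnq1ot1, 13 in Peg3, and 45 and 9 in the first and second of Grb10. At least 45 CG were found in 1.93% of 32851 windows of the same length, and at least 9 in 45.8%. The Peg3 window and that of its neighbour Usp29, which runs in the other direction at chr7:6730333-6730632 (plus strand), share 263 bases. CCAAT, the box bound by the factor NF-Y, was searched on both strands as CCAAT and ATTGG. It occurred 3 times in the Kcnq1ot1 window and 2 times in that of Peg3, against at least 3 in 3.37% and at least 2 in 11.7% of all windows, and in neither Grb10 window. Windows were counted for 30 of the 39 genes, 45 in all, with a median of 14 CG against 7 over all windows. For the other genes, Impact among them, no window was counted here, and whether the reference holds one is not stated. The median was 10 over 23 windows of paternally expressed genes and 20 over 13 of maternally expressed ones. These medians are over windows and not over genes, and some windows repeat others. The Snurf window is also a window of Snrpn, and Mest has windows that start at 30737800 and 30737803.

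The libraries held 32455480 to 54108158 reads counted to genes (median 38676778), and values are normalised counts, in which 1 read was worth 0.669 to 1.56. The fewest genes with a read were in CD male 10 (26859), LPD male 13 (28451) and MD-LPD male 9 (28871). All other libraries had 31502 to 36615. The part of this in the values at 0 and in the high values of those libraries was not tested. Known sperm transcripts were present in every library, with all 12 sperm and late spermatid markers detected in each and a summed level of 85545 to 1424680. Markers of other cells were present too. The 12 epididymal epithelial markers summed to 94670 to 518459, the 10 leukocyte markers to 19527 to 116890 and the 10 fibroblast markers to 10343 to 199392, and no marker of these lists was at 0 in every library. Of the epididymal sum 99.5% to 99.9% came from Crisp1 and Adam7, 5 of the 12 markers were detected in every library, and Lcn5 and Spint4 had reads in 1 and 2 libraries. LPD male 15 had the highest fibroblast sum, and the library next to it, LPD male 13, held 43755. CD male 10 and MD-WD male 16 had the highest leukocyte sums (111896 and 116890) and were lowest in the epididymal sum among CD and MD-WD libraries. In bulk RNA, fewer cells of a type and less RNA in each cell cannot be told apart. In what follows, 5 libraries are said to stand apart, namely male 10 of CD, male 15 of LPD, male 11 of WD, and males 9 and 11 of MD-LPD. These 5 were taken over from earlier results of these data and are not named by the study. No rule for the choice is given here. WD male 14, with 4 values flagged further below, is not among the 5. Several results that rest on these 5 libraries are also given without them.

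Levels of the imprinted genes were first set side by side within CD, per kb of exonic length. Gnas, which encodes the alpha subunit of the stimulatory G protein, stood at 1462 ± 317 normalised counts per kb (SD, n = 5) and was above every other imprinted gene in every CD library. Impact, an inhibitor of the amino acid sensor kinase GCN2, came next at 323 ± 26.3. It was followed by Igf2r, the receptor that carries mannose-6-phosphate proteins and IGF2 to lysosomes, at 225 ± 13.7, and the lowest Impact value still exceeded the highest Igf2r value. The ubiquitin ligase gene Ube3a (189 ± 35.2) exceeded Blcap (148 ± 7.91) in the same way. The other 35 of 38 pairs of neighbours in the order overlapped between libraries and could not be ranked.

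The long paternal transcript Kcnq1ot1 had the second highest count of all 39 genes, but with 93.9 kb of exon its level per kb was 96.6 ± 14.1, rank 10. At the low end, Usp29, Ddc and Zim1 stood at or below 1.19 per kb. Magel2 had reads in 1 library (CD male 14, 1.82 normalised counts) and Phlda2 in 2 (MD-LPD males 10 and 11, 5.86 and 2.02), so both were at or near the limit that 0 reads allows, 3 counts or 2.01 to 4.67 normalised counts in a library. Ascl2, a transcription factor of the trophoblast, did not exceed 9.98, and Snurf did not exceed 4.42, although all 216 bases of its exons lie inside Snrpn and reads there may have been counted to Snrpn. These 4 genes fell under the minimum mean of 5 and were not tested, which left 35, of which 29 had a read in every library.

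The listed maternally expressed genes had a higher median level than the paternally expressed ones. Over all 15 maternal and 20 paternal genes, the median level per kb in CD libraries averaged 56.1 ± 9.91 and 24.1 ± 4.37 (SD, n = 5). Over the 13 maternal and 18 paternal genes that passed the minimum mean of 5 it averaged 65.8 ± 13.3 and 28.7 ± 6.76. The 28050 genes of the table that passed the same minimum and have a length stood at 46 ± 0.58. The maternal median was above the paternal median in 25 of 25 libraries, by 1.45 to 3.21 times. This is a description of the listed genes, since genes are not replicates, and both classes ran from near 0 to 225 (maternal) and 323 (paternal) per kb.

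**Figure D1:**
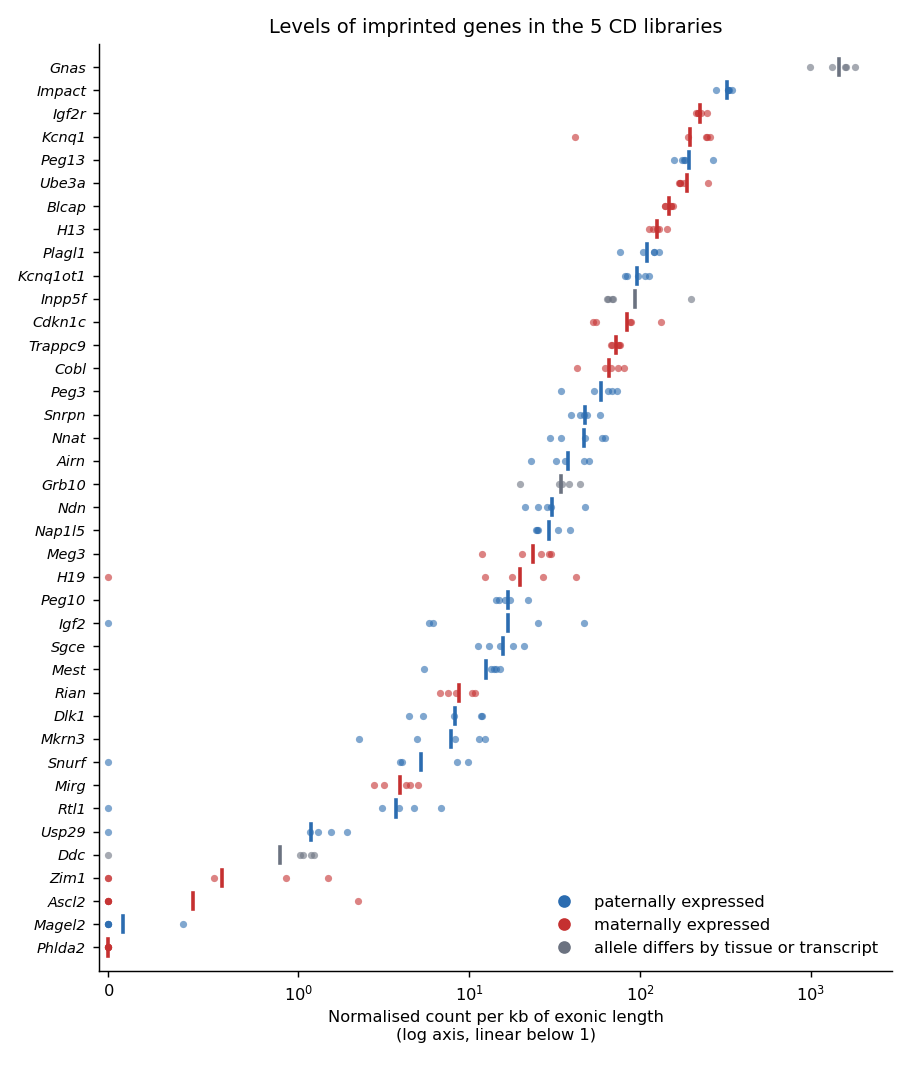
Normalised count per kb of exonic length (x axis, logarithmic above 1) of the 39 imprinted genes in the 5 CD libraries, each point a library and each bar the mean, coloured by the allele that is expressed. Gnas sits highest at 1462, Impact second at 323, and CD male 10 is at 0 for H19, Igf2, Rtl1 and Usp29.

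Whether diet alters these transcripts was tested for each diet against CD, for each methyl donor diet against its unsupplemented diet, and for the difference between the 2 methyl donor effects. With limma over 28311 genes, no imprinted gene passed an adjusted p of 0.05 in any of the 7 comparisons, and neither did any other gene (0% of all genes in each). The lowest adjusted p of an imprinted gene was 0.22, for Impact in WD. The quasi-likelihood test of edgeR also called 0 imprinted genes in each, and DESeq2 called 1, Peg10 in LPD, among the 0.162% of genes that it called there.

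At an unadjusted p under 0.05 with limma, 6 of the 35 genes were higher and 2 lower in LPD than in CD, where 4.8% and 3.76% of all genes tested were. In MD-LPD 1 was higher and 0 lower (background 1.79% and 1.43%). In WD 2 were higher and 4 lower (background 8.17% and 8.1%), and in MD-WD 1 and 2 (background 5.97% and 4.39%). Against LPD, MD-LPD had 0 higher and 2 lower (background 0.925% and 0.668%), and against WD, MD-WD had 0 and 1 (background 4.76% and 0.788%). The interaction of methyl donors with the base diet gave 0 in either direction (background 0.749% and 0.318%). By edgeR 8 genes were higher and 0 lower in LPD (background 5.6% and 3.5%) and 4 and 4 in WD (background 9.48% and 7.92%). By DESeq2 8 genes were higher and 0 lower in LPD (background 6.73% and 4.69%) and 4 and 4 in WD (background 12.2% and 9.71%). The LPD count by limma depended on the libraries and the scaling. Without the 5 libraries that stood apart, 2 were higher and 1 lower, where 2180 of 28311 genes passed, 610 of them higher. With equal library totals it was 2 and 0 (886 genes passed, 273 higher), and with TMM scaling 7 and 0 (2648 passed, 2003 higher). The 4 comparisons with CD share their control libraries, so their values are given side by side and are not independent.

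By allele, the 18 paternally and 13 maternally expressed genes tested were summarised by their medians. The median log2 difference from CD was 0.13 for paternal and 0.10 for maternal genes in LPD, where that of all genes was -0.04. It was 0.03 and 0.08 in MD-LPD (all genes -0.01), and -0.01 and 0.26 in WD (all genes 0.03). In MD-WD it was -0.07 and -0.17, where all genes stood at 0.11. In WD 9 paternal genes were above and 9 below CD, against 8 and 5 maternal genes. Methyl donors went with lower medians in both classes, -0.18 and -0.05 in MD-LPD against LPD and -0.28 and -0.19 in MD-WD against WD (all genes 0.01 and -0.03), with 25 and 25 of the 35 genes lower. Of all genes tested, 51.9% and 47.2% were higher in these 2 comparisons. The median log2 level of a class varied between libraries with an SD of 0.283 to 0.428, averaged over the groups compared. Leaving out 1 library gave -0.27 to -0.02 and -0.21 to -0.0035 in MD-LPD against LPD, and -0.32 to -0.10 and -0.37 to -0.02 in MD-WD against WD. Under the other settings varied, the highest values were -0.06 and 0.03 in MD-LPD against LPD and 0.03 and 0.05 in MD-WD against WD. All but the paternal median in MD-LPD against LPD thus rose above 0 in some setting. Scaling the libraries to equal totals moved the median of all genes, against CD, to -0.28 for LPD, -0.49 for WD, -0.21 for MD-LPD and -0.17 for MD-WD, and to 0.06 for MD-LPD against LPD and 0.20 for MD-WD against WD. In the last 2 comparisons 21 and 17 of the 35 genes were then lower. Of the 12 class medians compared with 0, those whose sign held under the deposited, equal-total and TMM scalings were those of the paternal genes in MD-WD against CD and in both methyl donor comparisons, and of the maternal genes in MD-WD against CD. Measured from the median of all genes instead, at most 1 of the 35 genes changed side in any comparison.

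**Figure D2:**
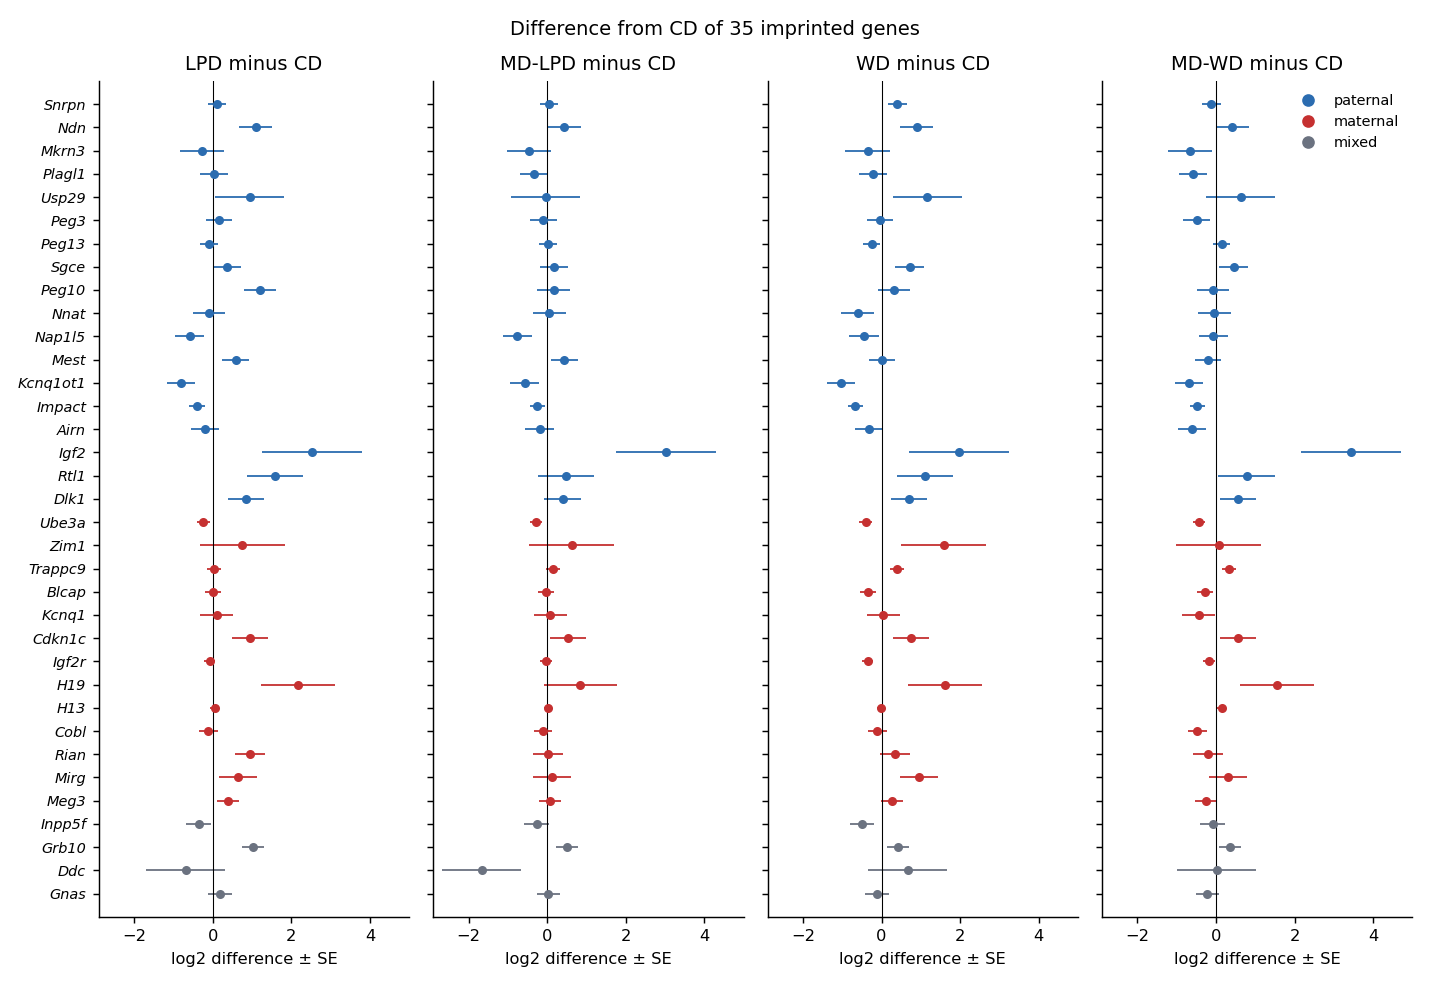
Log2 difference from CD with its standard error (x axis, pseudocount of 1, 5 libraries against 5) for the 35 imprinted genes tested, a panel for each diet, coloured by the allele that is expressed. Igf2 lies farthest to the right in LPD, MD-LPD, WD and MD-WD (2.53, 3.02, 1.98 and 3.45) with wide errors, and Kcnq1ot1 lies to the left in all 4.

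In LPD the lowest unadjusted p belonged to Grb10, an adaptor protein that restrains signalling from the insulin and IGF1 receptors and is maternal in most tissues and paternal in neurons. The CD libraries held 204, 345, 359, 392 and 458 normalised counts and the LPD libraries 494, 534, 568, 679 and 1584. All 5 LPD values were above all CD values. The MD-LPD libraries held 429.9, 435, 441, 474 and 668, WD 288, 433, 455, 560.3 and 632 and MD-WD 343, 363, 406, 546 and 581. The log2 difference of LPD from CD was 1.03 ± 0.28 (SE), with an adjusted p = 0.561 by limma and an adjusted p = 0.0579 by DESeq2. Grb10 was the only imprinted gene whose LPD and CD libraries did not overlap, where 1.85% of all genes had groups that did not overlap. With libraries grouped by the treatment field, CD male 15 (359) counts as LPD. It lies below CD males 11 (392) and 12 (458), so the Grb10 groups then overlap. LPD male 15 was highest of all 25 libraries, and without it the log2 difference was 0.73. Without the 5 libraries that stood apart it was 0.55 (adjusted p = 0.62). Grb10 (ENSMUSG00000020176) lies on chromosome 11 at 11880498 to 11988683 (GRCm39, GENCODE, minus strand).

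Peg10, a placental gene derived from a retrotransposon, and Sgce, which encodes epsilon-sarcoglycan, lie head to head with 98 bases between them. Peg10 held 96.4, 99.4, 108, 115 and 148 in CD and 119.7, 132, 208, 306 and 1153 in LPD. In MD-LPD it held 99.6, 108, 113, 137 and 187, in WD 80.3, 128, 154, 159 and 211 and in MD-WD 89, 96.4, 107, 108 and 140.2. The high LPD mean came mostly from male 15, and the other 4 LPD values ran from within the CD range to 306. The log2 difference in LPD was 1.20 ± 0.41 (adjusted p = 0.561, limma), and 1.76 by DESeq2 (adjusted p = 0.0482). Without male 15 it was 0.66 by limma (adjusted p = 0.749). Sgce, from the same control region, was 215 ± 52.8 in CD and 299 ± 144 in LPD (SD, n = 5), and was 265 in LPD male 15, a value within the range of the other LPD libraries.

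Ndn, which encodes the growth suppressor necdin and lies with Snrpn in the Prader-Willi domain, held 80.2, 95, 109, 114 and 181 in CD. LPD libraries held 104, 171, 238, 332 and 547, MD-LPD 100.5, 103, 153, 154 and 324, WD 104, 153, 199, 328 and 377 and MD-WD 94.1, 127, 154, 162 and 248. Groups overlapped, with 3 LPD and 3 WD values above the highest CD value. Its log2 difference was 1.09 ± 0.42 in LPD (adjusted p = 0.561, limma) and 0.90 ± 0.42 in WD (adjusted p = 0.295). Of its neighbours, Mkrn3 differed from CD by -0.27 ± 0.56 in LPD and -0.36 ± 0.56 in WD, and Snrpn by 0.10 ± 0.24 and 0.40 ± 0.24. In LPD the 3 genes did not lie on 1 side of CD.

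High Grb10, Peg10, Ndn and Rian were found in libraries that were also high in fibroblast transcripts. LPD males 15 and 13, WD male 11 and MD-LPD male 9 had the 4 highest fibroblast sums (199392, 43755, 29763 and 29056) and the 4 highest Grb10 values (1584, 679, 632 and 668). The same 4 libraries held the 4 highest values of H19 and of the cell cycle inhibitor gene Cdkn1c. The 10 fibroblast markers, all detected in every library, summed to 11541 to 18791 in CD, 10343 to 199392 in LPD, 13789 to 29056 in MD-LPD, 12488 to 29763 in WD and 13725 to 28782 in MD-WD. Not every high Grb10 value went with them, since LPD male 12 had the lowest fibroblast sum (10343) and a Grb10 value of 534, above all CD libraries. The part of these transcripts in the LPD differences was not tested.

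**Figure D3:**
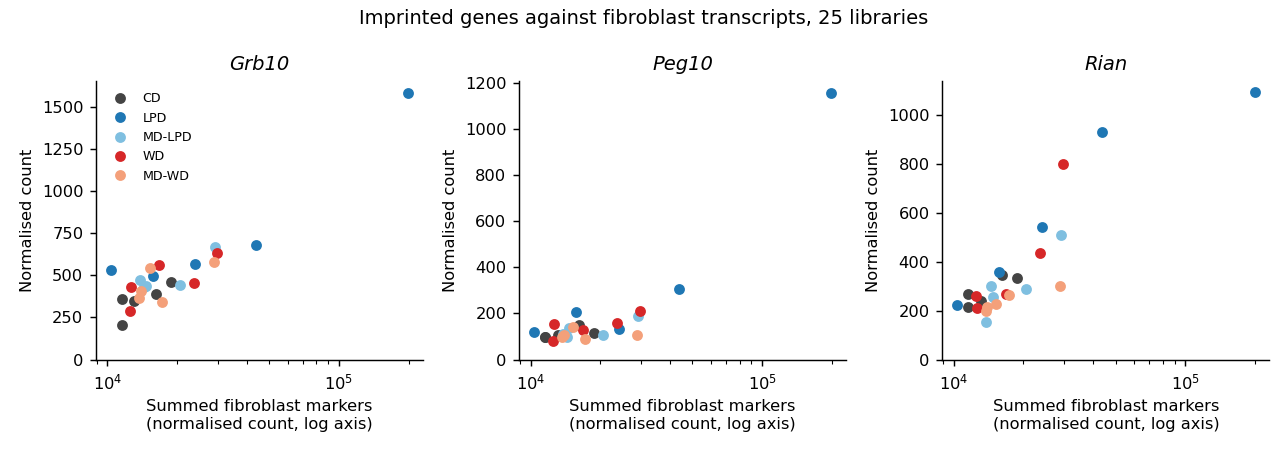
Normalised counts of Grb10, Peg10 and Rian (y axes) against the summed normalised count of 10 fibroblast markers (x axis, logarithmic) in the 25 libraries, coloured by diet. LPD male 15 is the point at the far right of each panel, at a sum of 199392, and holds the highest value of all 3 genes.

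The genes of the 2 domains that are methylated in the male germ line, H19-Igf2 and Dlk1-Meg3, were considered as 1 group. All 7 of them were above CD in LPD, with a median log2 difference of 0.95, and all 7 in MD-LPD (0.39) and WD (0.96), whereas 5 were above and 2 below in MD-WD (0.56). Over the 28 tested genes of domains methylated in the oocyte the medians were 0.03, -0.01, -0.07 and -0.10. CD male 10 was at 0 for H19, Igf2 and Rtl1 and had the fewest genes with a read of all libraries. Without it, 7 of 7 were above CD in LPD (0.65) and 7 of 7 in WD (0.42). In MD-LPD it was 4 of 7 (median 0.003) and in MD-WD 4 of 7 (0.19). Without the 5 libraries that stood apart the counts above CD were 7, 1, 5 and 4 of 7 in LPD, MD-LPD, WD and MD-WD. LPD males 13 and 15 and WD male 11, all high in fibroblast transcripts, ranked from 1 to 4 of 25 for H19, Meg3, Rian and Rtl1. Dlk1 ranked 15, Igf2 18 and Mirg 10 in LPD male 15, Mirg ranked 9 in LPD male 13, and Igf2 ranked 24 in WD male 11. The part of fibroblast transcripts in these differences was not tested.

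Igf2, the fetal growth factor, held 0, 35.8, 38.1, 157 and 288 in CD. It held 27.6, 64.3, 312, 480.3 and 1507 in LPD and 46.3, 389, 404, 514 and 599.5 in MD-LPD. In WD it held 17.8, 30, 339, 538 and 580.1 and in MD-WD 253, 400.3, 409, 425 and 567. Every group but MD-WD held libraries under 100, and all 5 MD-WD libraries were above 250. The log2 difference from CD was 3.02 ± 1.27 in MD-LPD (adjusted p = 0.999, limma) and 3.45 ± 1.27 in MD-WD (adjusted p = 0.481). Since CD male 10 was at 0, these differences depend on the pseudocount, and without that library they were 1.72 and 2.15.

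Counts of Igf2 could not be separated from those of a second gene model, Gm49394, which lies on the same strand and covers 3599 bases (58.4%) of the exons of Igf2. Gm49394 held 0, 94.1, 286, 442 and 503 in CD and 0 in all 5 MD-WD libraries. It was at 0 in 14 of 25 libraries, and the libraries in which Igf2 was under 100 normalised counts all had Gm49394 at 204 or more. The sum of both models was 251, 286, 288, 478 and 541 in CD, 312, 480.3, 522, 572 and 1507 in LPD and 250.1, 404, 457, 514 and 1093 in MD-LPD. In WD it was 339, 459, 538, 580.1 and 763 and in MD-WD 253, 400.3, 409, 425 and 567. The sum averaged 411 ± 111 in MD-WD and 369 ± 131 in CD (SD). Its log2 difference from CD was 0.18 in MD-WD (two-sided exact permutation test, p = 0.532) and 0.45 in MD-LPD (exact p = 0.341). It was 0.73 in LPD (exact p = 0.0873) and 0.56 in WD (exact p = 0.0873), and over the 6 comparisons made the lowest adjusted p was 0.262. The sum was formed after the values had been seen.

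H19, the maternal non-coding RNA of the same domain, is not part of that overlap. It held 0, 35.2, 51.1, 77.3 and 120.1 in CD and 40.8, 70.6, 99.9, 327 and 334 in LPD. In the other diets it ranged from 11.6 to 238 (MD-LPD), 55.7 to 145 (WD) and 47.8 to 111 (MD-WD). Only LPD males 13 and 15 exceeded 238, and the other 3 LPD libraries lay within the CD range. The log2 difference in LPD was 2.17 ± 0.94 (adjusted p = 0.561, limma), and 0.97 without CD male 10.

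In the Dlk1-Meg3 domain the maternal transcripts are non-coding, Meg3 first, then Rian, which hosts box C/D snoRNAs, and Mirg, which hosts microRNAs. Rian held 216, 241, 268, 335 and 344 in CD and 225, 356, 542, 931 and 1092 in LPD. It held 155, 258, 290.4, 301 and 508 in MD-LPD, 210, 261, 269, 436 and 800 in WD and 199, 216, 227, 264 and 302 in MD-WD. LPD males 13 and 15 and WD male 11 stood above all other libraries. Its log2 difference was 0.95 ± 0.38 in LPD against CD (adjusted p = 0.561, limma) and -0.93 ± 0.38 in MD-LPD against LPD (adjusted p = 1). Meg3 held 231, 391, 507, 566 and 579 in CD and 330.1, 407, 687, 691 and 919.9 in LPD. The MD-LPD values of Meg3 were 357, 376, 483, 530.1 and 578, those of WD 385, 443, 518, 530.1 and 798 and those of MD-WD 263, 328, 389, 423 and 452. Groups overlapped throughout, and MD-WD differed from WD by -0.51 ± 0.28 (adjusted p = 0.913). The paternal genes of the domain, Dlk1, a ligand related to Notch ligands, and Rtl1, derived from a retrotransposon, differed from CD by 0.85 ± 0.46 and 1.59 ± 0.72 in LPD, and by 0.70 ± 0.46 and 1.11 ± 0.72 in WD.

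**Figure D4:**
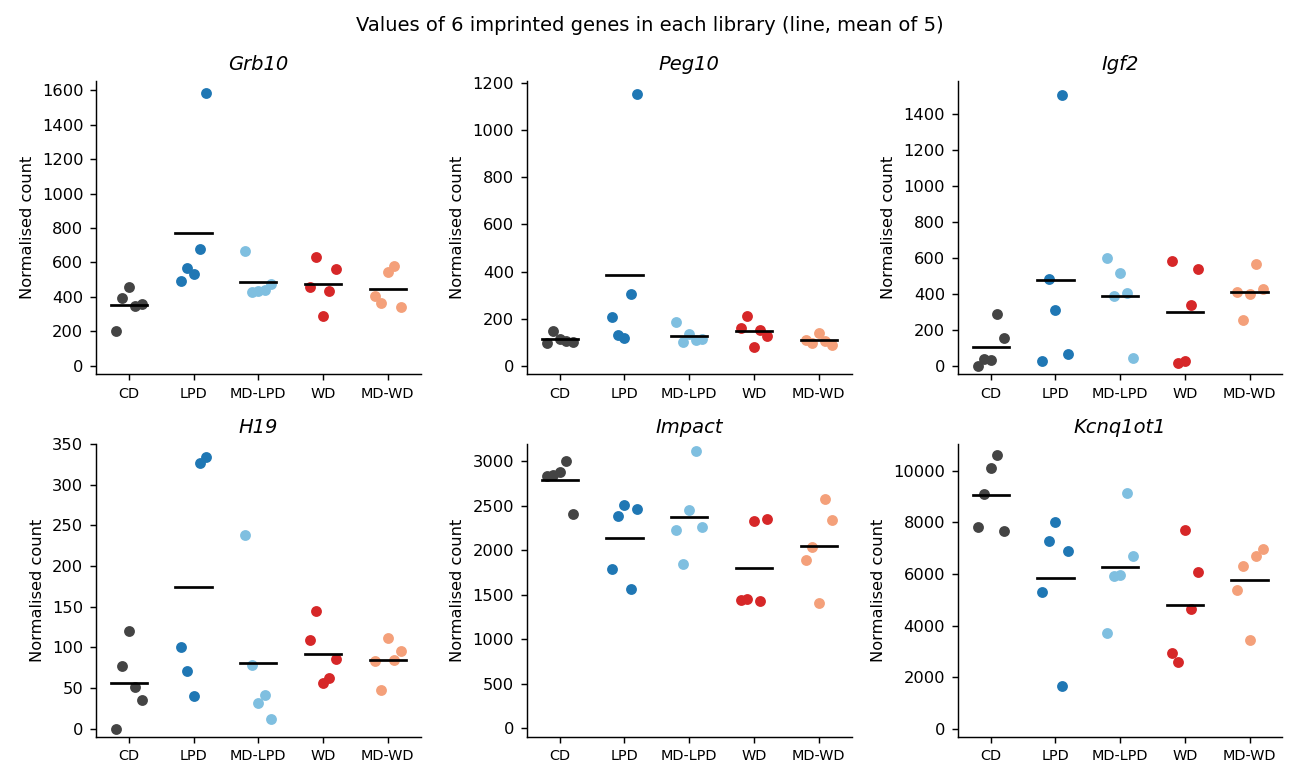
Normalised counts (y axes) of Grb10, Peg10, Igf2, H19, Impact and Kcnq1ot1 in each of 25 libraries, by diet, with the mean of 5 as a line. A single LPD library, male 15, reaches 1584 in Grb10 and 1153 in Peg10, and all 5 WD values of Impact lie below the lowest CD value, 2406.

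In WD the lowest unadjusted p was that of Impact, the inhibitor of GCN2, which is read from the paternal allele. Impact held 2406, 2831, 2843, 2879.6 and 3007 in CD and 1429.8, 1443, 1448, 2334 and 2352 in WD. It held 1565, 1786, 2390, 2463 and 2512 in LPD, 1849, 2222, 2261, 2451 and 3111 in MD-LPD and 1410.3, 1889, 2036, 2339 and 2577 in MD-WD. All WD values were below all CD values, and each of the other diets overlapped CD with a lower mean. The log2 difference of WD from CD was -0.67 ± 0.19 (adjusted p = 0.22, limma), a mean of 1801 ± 494 against 2793 ± 227 normalised counts (SD). In MD-WD it was -0.47 ± 0.19 (adjusted p = 0.481), in LPD -0.40 ± 0.19 (adjusted p = 0.58) and in MD-LPD -0.25 ± 0.19.

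Kcnq1ot1 is the paternal non-coding RNA that runs antisense through Kcnq1 and silences neighbouring genes on its own chromosome. Its values were 7656, 7836, 9108, 10102 and 10608 in CD and 2593, 2945, 4654, 6086 and 7702 in WD. They were 1637, 5310.3, 6897, 7274 and 8027 in LPD, 3722, 5913, 5954, 6714 and 9135 in MD-LPD and 3454, 5364, 6298, 6683 and 6976 in MD-WD. Every MD-WD library was below every CD library, and in WD all but male 12 were. LPD male 13 was lowest of all. Kcnq1ot1 (ENSMUSG00000101609) lies on chromosome 7 at 142731402 to 142850327 (GRCm39, minus strand). The log2 difference was -1.03 ± 0.36 in WD (adjusted p = 0.232, limma) and -0.69 ± 0.36 in MD-WD (adjusted p = 0.489). In LPD it was -0.81 ± 0.36 (adjusted p = 0.561), and in MD-LPD -0.57 ± 0.36. Of the maternal genes of the domain, Kcnq1, a potassium channel subunit, differed from CD by 0.05 ± 0.42 in WD, and Cdkn1c, the cell cycle inhibitor, by 0.74 ± 0.46. The Kcnq1 difference depends on CD male 10, which held 215 where the other CD libraries held 973, 1243, 1268 and 1311. Kcnq1 averaged 1002 ± 460 in CD and 923 ± 341 in WD (SD). Kcnq1ot1 shares 834 exonic bases with Kcnq1 on the other strand, 16.3% of Kcnq1, and whether strand was used in counting is not given in the sources used here.

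Ube3a, the ubiquitin ligase that is maternal in neurons and read from both alleles in most other cells, held 3656, 3748, 3752, 3931 and 5469.8 in CD. It held 2759, 2866, 2936, 2966 and 3966 in WD and 2399, 2677, 2934, 3524 and 3753 in MD-WD. In LPD it held 2896, 3164, 3234, 3992 and 4099 and in MD-LPD 2942, 3005, 3325, 3588 and 3889. Of the CD libraries male 10 was the highest, and 4 of 5 libraries of both WD and MD-WD were under the lowest CD value. The log2 difference was -0.40 ± 0.16 in WD (adjusted p = 0.245, limma), -0.43 ± 0.16 in MD-WD (adjusted p = 0.481) and -0.29 ± 0.16 in MD-LPD (adjusted p = 0.999). Igf2r held 2002, 2041, 2049.9, 2123 and 2324 in CD and 1408, 1435, 1648, 1669.7 and 2186 in WD. Its values were 1586, 1908, 2146, 2167 and 2209 in LPD, 1641, 2023, 2063, 2210.2 and 2411 in MD-LPD and 1438, 1863, 1895, 2008 and 2234 in MD-WD. In WD 4 of 5 libraries lay under the lowest CD value, with a log2 difference of -0.35 ± 0.15 (adjusted p = 0.262). Airn, the paternal antisense RNA that silences Igf2r, differed by -0.32 ± 0.36 in WD and -0.61 ± 0.36 in MD-WD.

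Trappc9, a subunit of the TRAPPII complex that tethers transport vesicles, went the other way. It held 1592, 1604, 1749, 1775 and 1790.3 in CD and 1969, 2051, 2170.1, 2561 and 2565 in WD. In LPD the values were 1322, 1588, 1628, 1839 and 2446, in MD-LPD 1602, 1617, 1919, 2069.6 and 2363 and in MD-WD 1748, 1765, 1778, 2570.4 and 3198. Every WD value lay above every CD value, with a log2 difference of 0.40 ± 0.18 (adjusted p = 0.28, limma). Impact and Trappc9 were the 2 imprinted genes whose WD and CD libraries did not overlap, and 3.86% of all genes did not overlap there. In MD-WD Kcnq1ot1 was the 1 such gene, against 3.82% of all genes. With libraries grouped by the treatment field, MD-LPD male 15 (Trappc9 at 1617) counts as WD. The Trappc9 values of WD and CD then overlap. Peg13, the paternal non-coding RNA inside Trappc9, held 746, 834, 857, 861 and 1271 in CD and 645, 701, 767, 804 and 871 in WD. Its values were 744, 809.7, 843, 913 and 915 in LPD, 654, 715, 946, 1096 and 1314 in MD-LPD and 741, 759, 764, 1313 and 1714 in MD-WD. In Peg13 MD-WD differed from WD by 0.40 ± 0.22 (adjusted p = 0.918), and by 0.20 without male 16, the highest library. Peg13 ranked 1 to 4 of 25 in MD-WD male 16, MD-LPD male 9, MD-WD male 14 and CD male 10. For the leukocyte sum these libraries ranked 1, 3, 5 and 2. LPD male 15 ranked 4 for that sum and 12 for Peg13. The part of leukocyte transcripts in the Peg13 difference was not tested. Peg13 and Trappc9 share 1293 exonic bases on the same strand, 27.4% of Peg13, so their counts may have been split.

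Gnas and H13, a signal peptide peptidase gene, were among the most abundant and did not differ from CD beyond the spread of their libraries. Gnas held 11784, 16040.2, 18984, 19183 and 21763 in CD and 11515, 16627, 18718, 21984 and 36632 in LPD. It held 12719.5, 14027, 15067, 20831 and 29838 in MD-LPD, 11879, 13519.7, 13617, 14645 and 31484 in WD and 10982, 13227, 15148, 15809 and 20305 in MD-WD. No group stood apart, and the log2 differences from CD ran from -0.22 in MD-WD to 0.19 in LPD. H13 held 1994, 2095, 2203, 2267 and 2547 in CD and 2153, 2178, 2195, 2349.5 and 2592 in LPD. The MD-LPD libraries of H13 held 2158, 2174, 2231, 2311 and 2363, those of WD 1939, 2145, 2257, 2265 and 2419 and those of MD-WD 2331, 2335, 2456, 2475 and 2632. Its groups overlapped, with log2 differences from CD of -0.01 in WD and 0.14 ± 0.11 in MD-WD, and a methyl donor effect that differed between WD and LPD by 0.18 ± 0.15 (adjusted p = 1, limma).

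Several of these genes were high or low in the libraries richest in sperm transcripts. The 12 sperm markers summed to 213691 to 468328 in CD, 85545 to 1180990 in LPD, 116848 to 956847 in MD-LPD, 208326 to 1321250 in WD and 279796 to 1424680 in MD-WD. The 5 libraries of highest sum were MD-WD male 12, WD male 11, LPD male 10, MD-LPD male 10 and WD male 10. They held 5 of the 6 highest values of Trappc9, Sgce, Snrpn and Mirg, and Impact ranked 19 or lower of 25 in each, as did Igf2r. In MD-WD male 12 Trappc9 was 3198 and Impact 1410.3, and in LPD male 12, the library of lowest sperm sum (85545), they were 1839 and 2512. WD had the highest median sperm sum of the 5 groups (862324 against 323574 in CD). The part of sperm transcripts in the WD differences of Impact, Kcnq1ot1, Igf2r and Trappc9 was not tested.

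**Figure D5:**
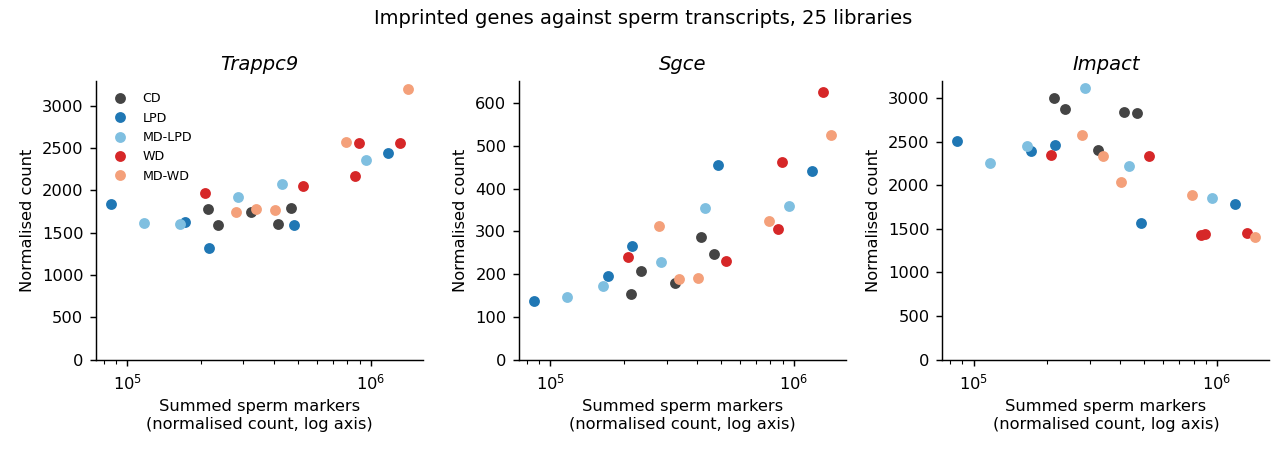
Normalised counts of Trappc9, Sgce and Impact (y axes) against the summed normalised count of 12 sperm markers (x axis, logarithmic) in the 25 libraries, coloured by diet. Trappc9 and Sgce are highest at the right and Impact is low there, with MD-WD male 12 at the far right at a sum of 1424680.

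Of the remaining genes with a low p, Snrpn, which encodes a protein of the spliceosome, held 373, 419, 441, 461 and 549 in CD, 386, 486, 609, 709.7 and 874 in WD and 289.6, 308, 398, 516 and 643 in MD-WD. The LPD libraries of Snrpn held 348, 437, 476, 487 and 708 and those of MD-LPD 386, 417, 455, 469.8 and 587. WD males 10 and 11 lay above every MD-WD library. MD-WD differed from WD by -0.52 ± 0.24 (adjusted p = 0.896, limma), and the methyl donor effect differed between WD and LPD by -0.46 ± 0.33 (adjusted p = 1). Its exons share 1250 bases with the gene model Gm38393 on the same strand. Nap1l5, a small gene related to nucleosome assembly proteins, held 45.7, 46, 46.6, 61.1 and 72 in CD and 12.5, 30.5, 36.1, 45.1 and 46.8 in MD-LPD. It held 22.1, 28.1, 36.1, 45.5 and 52.6 in LPD, 30.8, 33.2, 39.8, 46.3 and 48.1 in WD and 20.2, 49.5, 60.4, 63.7 and 88 in MD-WD. MD-LPD male 9 was lowest, and the log2 difference of MD-LPD from CD was -0.75 ± 0.37 (adjusted p = 0.999).

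Adding methyl donors to LPD went with lower Peg10 (-1.04 ± 0.41), Rian (-0.93 ± 0.38) and Grb10 (-0.52 ± 0.28), each with an adjusted p of 1 by limma. Without LPD male 15 these were -0.50, -0.67 and -0.23. With libraries grouped by the treatment field, which places LPD male 15 in MD-LPD, all 3 differences were above 0. The interaction for Grb10, the methyl donor effect on WD minus that on LPD, was 0.46 ± 0.40 (adjusted p = 1, limma).

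Among the other 19 genes tested, the lowest adjusted p by limma was 0.319. Peg3, a zinc finger gene, and Usp29, a deubiquitinase gene, whose promoter windows overlap, averaged 808 ± 210.2 and 21.6 ± 13.1 normalised counts in CD (SD, n = 5). Peg3 differed from CD by 0.16 ± 0.34 in LPD and -0.49 ± 0.34 in MD-WD, and Usp29 by 0.94 ± 0.87 and 0.63 ± 0.87. Zim1, the maternal gene beside them, had reads in 18 of 25 libraries. Mest, of the alpha/beta hydrolase fold, averaged 101 ± 32.2 in CD and 147 ± 36 in LPD, but 47.7% of its exons are overlapped by Copg2 on the other strand. Plagl1, a zinc finger transcription factor, was 944 ± 179.6 in CD and 624 ± 64.1 in MD-WD. Nnat, a small membrane protein gene in an intron of Blcap, was 97.7 ± 30.7 in CD and 66.3 ± 29.3 in WD, and Blcap itself 532 ± 28.4 and 433 ± 116. Cobl, an actin nucleator, was 836 ± 182 in CD and 612 ± 172 in MD-WD. Inpp5f, an inositol phosphatase gene, held 631, 635, 674, 682 and 1941 in CD, where male 10, rich in leukocyte markers, was highest, and MD-WD male 16 held 1578. Mirg ranged from 18 to 146 over the 25 libraries. Ddc, DOPA decarboxylase, had reads in 18 libraries and at most 21.1.

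A second list of 41 further imprinted genes, chosen with the same earlier results known, was read against the first. Of these, 36 were tested and 0 passed with limma in any comparison, while edgeR called 0 and DESeq2 called 1 in LPD against CD (Dio3). With limma and no adjustment, LPD had 3 above CD and 0 below at p of 0.05 (background 4.8% and 3.76%, median log2 difference 0.02), and for WD there were 5 above CD and 1 below (background 8.17% and 8.1%, median log2 difference 0.28). The supplemented diets gave 1 above CD and 0 below for MD-LPD (background 1.79% and 1.43%, median log2 difference -0.002) and 2 above CD and 1 below for MD-WD (background 5.97% and 4.39%, median log2 difference 0.19). Casd1, an acetyltransferase for sialic acid beside Sgce, averaged 676 ± 86 in CD and 475 ± 83.7 in WD (log2 difference -0.52, adjusted p = 0.22). Slc22a18, a transporter gene beside Cdkn1c, averaged 62 ± 8.72 and 125 ± 41.4 (0.94, adjusted p = 0.232), and Slc22a3, an organic cation transporter gene beside Igf2r, 18.4 ± 14.2 and 53.1 ± 33.4 (1.87).

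Genes that set and keep the imprint were the last group. All 19 matched genes of 20 were tested, and 0 passed with limma in any comparison, while edgeR called 0 and DESeq2 called 0. With limma and no adjustment, LPD had 0 above CD and 2 below at p of 0.05 (background 4.8% and 3.76%, median log2 difference -0.01), and for WD there were 2 above CD and 4 below (background 8.17% and 8.1%, median log2 difference -0.19). The supplemented diets gave 0 above CD and 0 below for MD-LPD (background 1.79% and 1.43%, median log2 difference -0.01) and 2 above CD and 0 below for MD-WD (background 5.97% and 4.39%, median log2 difference 0.04). In MD-WD against WD 1 was above and 0 below (background 4.76% and 0.788%, median 0.15). Dnmt3a, the de novo methyltransferase, averaged 2407 ± 516 in CD and 1699.8 ± 382 in WD (log2 difference -0.50, adjusted p = 0.253). Tet2, which oxidises 5-methylcytosine, averaged 4205 ± 816 and 2865 ± 743 (-0.58, adjusted p = 0.23). Uhrf1, which brings the maintenance methyltransferase to newly copied DNA, averaged 270.3 ± 33.7 and 658 ± 276 (1.15, adjusted p = 0.232).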

How the data were processed

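Libraries from 25 males were rRNA-depleted and stranded. Per the labels and methods, the authors used Trim Galore (0.6.7), HISAT2 (2.2.1) on GRCm39 and StringTie (2.2.1), and the deposited signal is a gene's read count over the DESeq2 size factor of its library. Undoing the factor gave whole reads for 100% of values (within 0.01). Symbols came from GENCODE vM39 (47034 of 47575 IDs). The main test was limma 3.58.1 (R 4.3.3, trended and robust, 5 groups in 1 model) on log2 of the normalised count plus 1, for the 28311 genes averaging 5 or more, with Benjamini-Hochberg adjustment at 0.05. Recovered reads were also tested with edgeR 4.0.16 and DESeq2 1.42.0, and scaling, pseudocount, filter, replicate block, grouping and omitted libraries were varied. Scripts were tested on simulated data and ran in Python 3.11.15 with pandas 2.3.3, numpy 2.4.6, matplotlib 3.10.9 and scipy 1.17.1. All library values are given for the 8 genes of highest mean and the 3 of lowest p in each of 7 comparisons. Members and lists were chosen with earlier results of these data known. The study names 6 males a group, of which 5 were analysed here. No library was a duplicate of another.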

Additional observations from a re-analysis of the deposited data

Results flagged for a closer look

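In 18 of 175 sets of 5 libraries (35 imprinted genes in 5 groups) the highest or lowest library lay far from the other 4, by Dixon's criterion at 95%. Chance alone meets it in about 1 group in 20 where values are independent and normally distributed. The sets here share libraries and are not independent, so whether 18 exceeds chance was not tested. CD male 10 stood apart with Ube3a at 5469.8, Peg13 at 1271 and Inpp5f at 1941 as the highest values and with Mest at 44.1 and Ddc at 0 as the lowest values of its group (normalised counts). WD male 14 stood apart with Peg3 at 1556, Ube3a at 3966, Plagl1 at 1856 and Gnas at 31484 as the highest values of its group (normalised counts). WD male 11 stood apart with Dlk1 at 192 and Rtl1 at 85.3 as the highest values of its group (normalised counts). MD-LPD male 9 stood apart with Ndn at 324 and Grb10 at 668 as the highest values of its group (normalised counts). LPD male 15 stood apart with Peg10 at 1153 and Grb10 at 1584 as the highest values of its group (normalised counts). LPD male 10 stood apart with Mirg at 101 as the highest value of its group (normalised counts). LPD male 13 stood apart with Usp29 at 8.95 as the lowest value of its group (normalised counts). MD-WD male 14 stood apart with Zim1 at 23.5 as the highest value of its group (normalised counts). CD male 10, WD male 14 and WD male 11 account for 11 of these 18 values.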

How the results depend on the processing

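Across other scalings, pseudocounts, filters, tools, groupings and omissions, the number of imprinted genes past an adjusted p of 0.05 was 0 in all 7 comparisons, except 1 (Peg10) in LPD against CD with DESeq2, and it was 0 to 0 when each library was left out in turn. Over all genes limma called 0, and 1 in some comparisons with no filter, with only the groups compared, or without CD male 12, MD-LPD male 9 or WD male 10. DESeq2 called 46, 18, 140, 68, 16, 15 and 8 in the order of the comparisons above. With equal library totals the median log2 difference in WD against CD was -0.54 for paternal and -0.27 for maternal genes, where all genes moved to -0.49. With groups taken from the treatment field, MD-LPD against LPD turned to 0.33 for Peg10, 0.10 for Rian and 0.25 for Grb10, and the interaction of Grb10 to -0.32, a grouping in which LPD male 15 counts as MD-LPD. Leaving out each library in turn, the medians ranged from 0.01 to 0.24 (paternal) and 0.04 to 0.25 (maternal) in LPD against CD, -0.17 to 0.12 and -0.03 to 0.17 in MD-LPD, -0.20 to 0.12 and 0.04 to 0.37 in WD, and -0.20 to 0.08 and -0.24 to -0.13 in MD-WD. The number of the male did not pair the samples. Over 33 pairs with the same number the deviations correlated at -0.42 to 0.57, and 4 of 24 libraries correlated best with a library of their own number. With the replicate block, 0 imprinted genes passed in each comparison and the median in LPD against CD was 0.16 (paternal) and 0.18 (maternal). Counting Igf2 with Gm49394, chosen after the data were seen, gave 0.45 in MD-LPD and 0.18 in MD-WD. For low genes with libraries at 0, such as Zim1, Ddc and Usp29, the smallest difference that could have been detected was not tested.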
